A study of Mus musculus with 38 samples.

Results

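The genes examined encode the oocyte linker histone H1foo, the somatic-type replacement linker histone H1f0, the H2A variants H2afz, H2afv, H2afx and H2afy, the H3.3 genes H3f3a and H3f3b, and the histone chaperones Npm2 and Hira. These 10 genes were taken by symbol from a table of 23125 genes. They had been selected on their FPKM values in polysome and non-polysome RNA over the 6 stages, so their levels and changes are given as a description, with no p-value. Where a difference is said to be called, it passed the limits used for all genes, which for these genes is a description of its size against the spread and not an independent test. Of the 10, 8 reached the minimum for the fit across all genes, a geometric mean of 0.1 FPKM over the libraries. H2afy and Hira did not, and their values are given only per library.

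Mouse oocytes and early embryos were fractionated on sucrose gradients, and RNA was sequenced from the heavy, polysome fractions and from the light, non-polysome fractions. The animals were ICR females at least 6 weeks old, and oocyte donors were primed with the hormone PMSG. The study's gradient method used lysis after treatment with cycloheximide. GV oocytes were in meiotic prophase, with no culture after removal of the phosphodiesterase inhibitor IBMX (0 h), and MII oocytes were matured in vitro for 12 h. Zygotes and two-cell embryos came from mated, hormone-primed females. Zygote M and two-cell M embryos were held in M-phase with 10 µM nocodazole, which blocks spindle microtubules, so the M-phase state and the drug cannot be told apart in embryos. Each stage and fraction had 3 libraries, 36 in all, lettered A, B and C (B, C and D in zygotes). Values are given in that order. Oocytes or embryos were pooled within a library, and fewer cells holding a transcript cannot be told apart from less RNA per cell. The study describes the replicates as biological, and the labels do not say which animals they came from.

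Linker histones bind the nucleosome where DNA enters and leaves it. The oocyte carries a germline form, H1foo, which the embryo replaces with somatic-type linker histones during cleavage. Histone variants are deposited outside DNA replication. H2A.Z (genes H2afz and H2afv) is placed by SRCAP and p400 complexes, H2A.X (H2afx) is phosphorylated at DNA breaks, macroH2A (H2afy) is linked with silent chromatin, and H3.3 is deposited by the HIRA complex, among other places on the paternal genome after fertilization. Npm2, an oocyte nucleoplasmin, acts in sperm chromatin remodelling. Transcription is silent in fully grown oocytes, so there the mRNAs for these proteins are stored and their use is set by loading onto ribosomes and by decay. The study places the major activation of the embryonic genome at the two-cell stage. From that stage on, a higher level may include new transcripts, which was not tested.

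Short stretches of these mRNAs are shown because they tell near-identical genes apart or lie where storage and decay are controlled. They were read from GENCODE M21 transcripts of the GRCm38 build. H3f3a and H3f3b encode the same protein from coding sequences of 411 bases that were 76.9% identical, and all 83 of their differing codons, out of 137, were synonymous. Their first 60 coding bases, both in exon 2 of 4, at chr1:180811867-180811926 (minus strand) and chr11:116023950-116024009 (minus strand), differed at 13 bases, shown in capitals.
H3f3a: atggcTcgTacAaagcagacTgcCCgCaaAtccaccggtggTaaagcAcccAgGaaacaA
H3f3b: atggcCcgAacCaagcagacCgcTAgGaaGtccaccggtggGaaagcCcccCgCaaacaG

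The H2A.Z genes H2afz (chromosome 3) and H2afv (chromosome 11) had coding sequences of 387 bases with 79.1% identity. Of their 74 differing codons, 71 were synonymous and 3 changed the amino acid. The first 60 coding bases, which span exons 1 and 2, are shown with the 13 differing bases in capitals.
H2afz: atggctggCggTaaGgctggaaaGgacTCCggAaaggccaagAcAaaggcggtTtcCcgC
H2afv: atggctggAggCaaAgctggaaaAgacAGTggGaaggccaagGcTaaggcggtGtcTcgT

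H1foo lies at chr6:115944938-115950236 (plus strand), H1f0 at chr15:79028450-79030504 (plus strand), H2afy at chr13:56073619-56136361 (minus strand), Npm2 at chr14:70647302-70659244 (minus strand) and Hira at chr16:18877037-18970309 (plus strand). H2afx is a single-exon gene at chr9:44334694-44336077 (plus strand). The end of its coding sequence, at chr9:44335164-44335193, holds the serine codon (capitals) that is phosphorylated at DNA breaks. From base 47 after the stop codon, the 3′ UTR holds an inverted repeat (shown within chr9:44335234-44335261, arms of 6 bases in capitals, 4 bases apart) of the shape of a histone stem-loop, and H2A.X mRNA is known in a form that ends at such a loop and in a polyadenylated form. A repeat of this geometry was present in the first 100 bases after the stop codon of 4.81% of 21808 protein-coding genes (1 transcript per gene).
H2afx coding end: aaggcctcgcaggccTCTcaggagtactga
H2afx inverted repeat: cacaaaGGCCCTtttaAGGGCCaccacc

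In maturing oocytes, stored mRNAs are polyadenylated through an element of the letters TTTTAT that CPEB1 binds close to the poly(A) signal. TTTTAT was searched on the transcribed strand in the last 100 bases of 1 transcript per gene, which held it in 12.8% of the 21808 genes. It was present in H1foo, H2afv and H2afx, and these letters were not found in that window of H1f0, H2afz, H2afy, H3f3a, H3f3b, Npm2 or Hira. In H2afx it overlapped the poly(A) signal ATTAAA by 2 bases, and in H2afv and H1foo it began 32 and 45 bases before AATAAA. The windows of 30 bases show TTTTAT in capitals for H1foo (chr6:115950157-115950186, plus strand, exon 5 of 5), H2afx (chr9:44336027-44336056, plus strand) and H2afv (chr11:6427272-6427301, minus strand, exon 5 of 5), and for comparison the poly(A) signal of H2afz (chr3:137866885-137866914, plus strand, exon 5 of 5) and Npm2 (chr14:70647304-70647333, minus strand, exon 9 of 9). All lie in 3′ UTRs, and a match of letters is no measured site.
H1foo: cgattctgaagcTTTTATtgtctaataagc
H2afx: ttaatgggctaaTTTTATtaaaggatcgtt
H2afv: tttgaagaaataTTTTATtatggaagttct
H2afz: ctctgcttactaATTAAAcagtgcatctgt
Npm2: gcctagggccacAATAAAatttgcatgatc

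The libraries held an estimated 8490000 to 26700000 fragments each, with the lowest depths in two-cell M (from 11100000 in polysomes and from 8490000 in the non-polysome fraction). Between 5140 and 10525 genes lay above 0.1 FPKM. All 10 oocyte markers (such as Zp3 and Gdf9) had a mean above 1 FPKM in GV and MII, and also in zygotes and in two-cell M polysomes. Of the two-cell markers in the table (such as Zscan4d), 7 of 7 did so in two-cell and 2 of 7 in GV polysomes. The summed level of the two-cell markers was no higher in two-cell polysomes (121 to 187 FPKM) than in GV polysomes (176 to 323 FPKM), whereas outside polysomes it was 414 to 711 FPKM in two-cell and 141 to 204 FPKM in GV. The sum includes Tcstv1 and Tcstv3, whose lowest group means at any stage were 31.1 and 10.7 FPKM. None of 8 cumulus and granulosa cell markers had a group mean above 1 FPKM. The 4 blood markers in the table summed to 34.3 to 83.7 FPKM in two-cell polysomes, 24.4 to 42.5 FPKM in two-cell M polysomes and at most 1.33 FPKM in polysomes of the 4 earlier groups. Outside polysomes they summed to 99.7 to 162 FPKM in two-cell, 0.04 to 52.6 FPKM in two-cell M and at most 0.861 FPKM earlier, and their part in the results was not tested. These sums were mostly those of Hba-a1, whose highest group mean was 129 FPKM. The highest group means of Hba-a2, Hbb-bs and Hbb-bt were 2.51, 0.149 and 0.117 FPKM. FPKM is relative to the fragments of its own library, so a value compares a gene with the rest of that fraction and does not give the share of its RNA on polysomes.

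**Figure D1:**
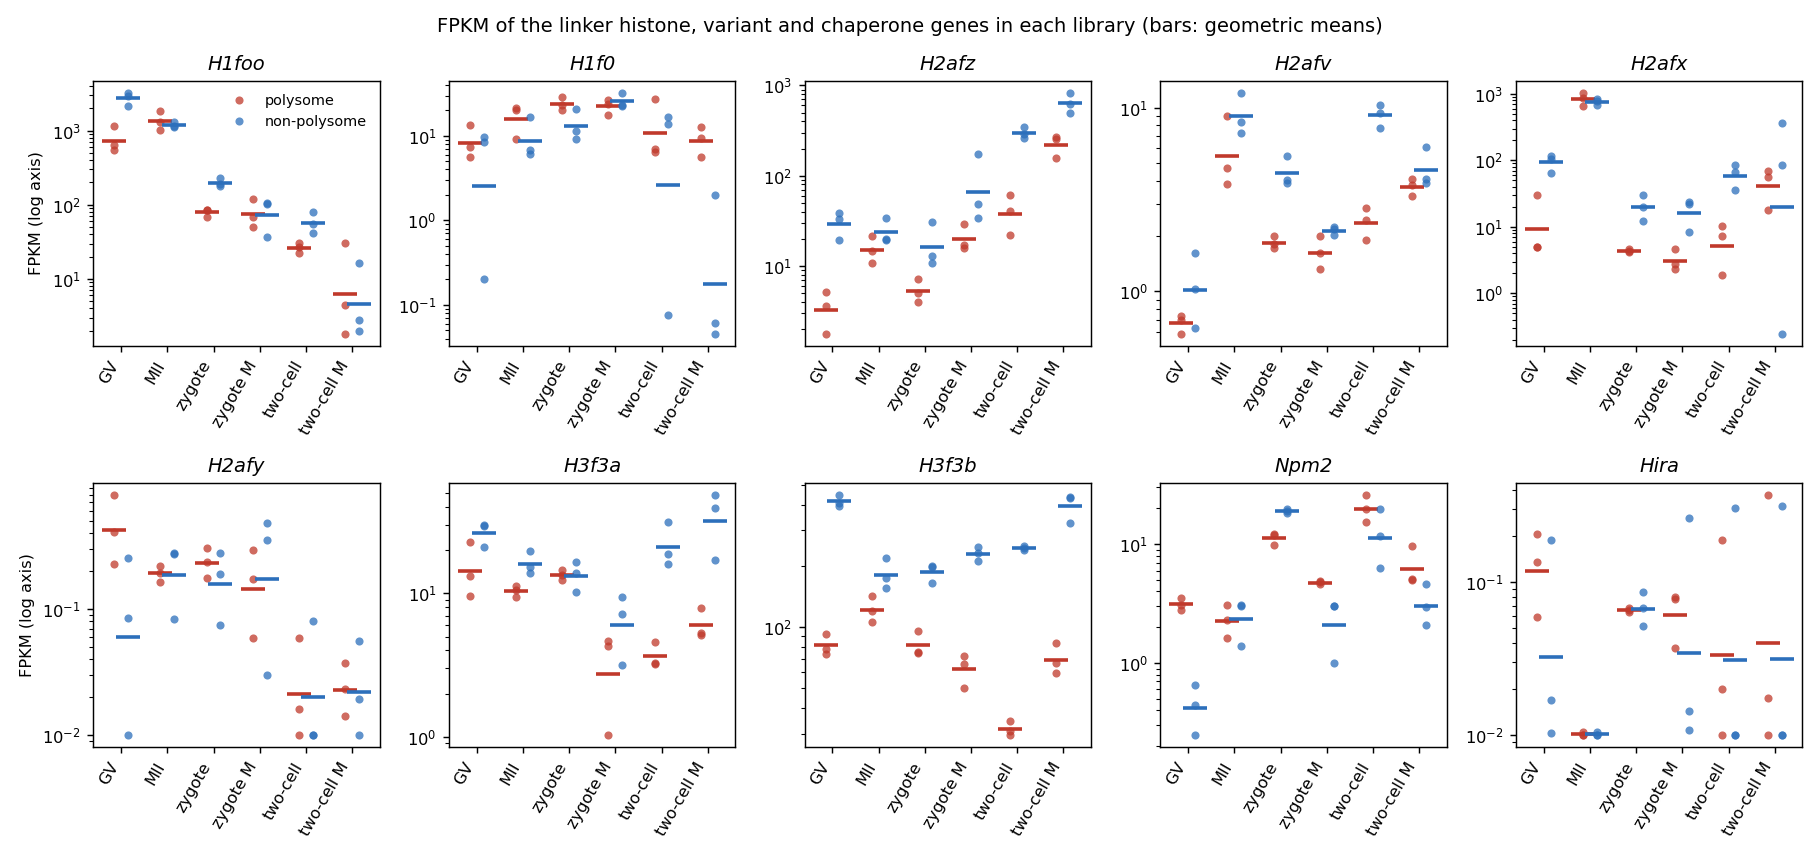
Each point is 1 library (FPKM on a log axis) and each bar the geometric mean of 3, in polysome (red) and non-polysome (blue) RNA at the 6 stages. H1foo was lower in every embryo library than in every oocyte library, H2afx stood at 654 to 1034 FPKM in MII polysomes, and H2afz was highest in two-cell M.

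The oocyte linker histone mRNA H1foo was among the most abundant of the oocyte and was lower in polysomes of every embryo group. In polysomes it measured 632, 544 and 1143 FPKM in GV and 1308, 1021 and 1845 FPKM in MII, where its mean was the 8th highest of all genes. Zygote polysomes held 68.6, 85.9 and 84.6 FPKM and zygote M 119, 49.9 and 68.3 FPKM. Every embryo library was therefore below every oocyte library. Two-cell held 22.3, 26.9 and 30.1 FPKM and two-cell M 1.83, 4.44 and 30.2 FPKM, of which only library C reached the two-cell range. On the log2 scale H1foo was 3.21 ± 0.68 (SE of the fit, n = 3 per group here and below) higher in GV than in zygotes, which is 9.24-fold, and 4.80 ± 0.68 higher in GV than in two-cell. The difference was 4.19 ± 0.68 between MII and zygote M and 7.75 ± 0.68 between MII and two-cell M. The last value was 6.87 without two-cell M A and 8.89 without two-cell M C, and it stayed called.

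H1foo differed between fractions most in GV. Its non-polysome values there were 2954, 3203 and 2168 FPKM, the 4th highest mean of all genes, and the polysome values lay 3.74-fold lower with no overlap, although this difference was not called. A call needs a limma adjusted p under 0.05 over 7967 genes and a fold change beyond 2. The difference was called without two-cell M C of either fraction and in 3 of 8 other settings, which were 1 added to each FPKM, a fit of those libraries alone, and stage and letter as a block. In MII the non-polysome values of 1116, 1142 and 1304 FPKM overlapped the polysome values. From GV to MII the polysome level moved by 0.88 ± 0.68 and the non-polysome level by -1.21 ± 0.68 on the log2 scale, and neither was called. Non-polysome H1foo then measured 227, 190.0 and 179 FPKM in zygotes, 37.1 to 105 FPKM in zygote M, 41.8 to 79.7 FPKM in two-cell and 2.01 to 16.6 FPKM in two-cell M. From two-cell to two-cell M, H1foo fell by 2.07 ± 0.68 in polysomes and by 3.65 ± 0.68 in the non-polysome fraction on the log2 scale. The non-polysome fall was made smaller by two-cell M C of that fraction (16.6 FPKM, against 2.78 and 2.01 FPKM in A and B). The polysome call was lost in a fit of those groups alone and without two-cell C, two-cell M A or two-cell M B, with values between -3.20 and -1.18 when 1 of the libraries compared was left out.

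H1f0, a linker histone of differentiated cells, was present at each stage at levels well under those of H1foo in oocytes. Polysome values were 7.36, 5.65 and 13.6 FPKM in GV, 9.18, 21.3 and 20.3 FPKM in MII, and 28.5, 20 and 23.5 FPKM in zygotes. They were 17.7 to 26.7 FPKM in zygote M, 6.40 to 27.3 FPKM in two-cell and 5.63 to 12.6 FPKM in two-cell M, and neighbouring groups in this order overlapped. GV and zygote did not overlap, and GV was 1.52 ± 1.46 lower, which was called only in a fit of those groups alone. In zygote M the mean of 22.8 ± 4.65 FPKM (SD, n = 3) was 0.289 of that of H1foo, and in two-cell M the H1f0 and H1foo polysome ranges overlapped. In the non-polysome fraction H1f0 came down to 0.0458, 2.02 and 0.0610 FPKM in two-cell M, and GV B and two-cell B were also low (0.200 and 0.0761 FPKM). These rest on about 1, 35, 2, 9 and 2 fragments. H1f0 was called higher in polysome than in non-polysome RNA of two-cell M (5.62 ± 1.46 on the log2 scale), a call that was lost without non-polysome two-cell M A (4.64), under quantile normalization (3.23) and in a fit of those libraries alone. With 1 added to each FPKM the difference was 2.72. The fall from two-cell to two-cell M outside polysomes (-3.87 ± 1.46) was also lost without that library (-2.89), two-cell M C (-3.10), two-cell A (-2.67) or two-cell C (-2.52) of that fraction.

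H2afz, the main H2A.Z gene, increased in polysomes at each M-phase and again with embryonic age. It measured 3.66, 1.79 and 5.19 FPKM in GV and 10.9, 21.4 and 14.8 FPKM in MII polysomes. Zygotes held 7.21, 4.01 and 5.05 FPKM, zygote M 17.2, 29.3 and 15.7 FPKM, two-cell 40.3, 60.9 and 22.3 FPKM and two-cell M 155, 268 and 254 FPKM. In all 3 pairs each M-phase library exceeded each interphase library. The log2 differences were 2.22 ± 0.54 for MII against GV, 1.92 ± 0.54 for zygote M against zygote and 2.53 ± 0.54 for two-cell M against two-cell, and all 3 were called. The first was lost without GV B or MII B, and the second without any one of zygote C, zygote D, zygote M A and zygote M B. H2afz was also lower in GV than in two-cell (-3.55 ± 0.54), and MII stood below two-cell M (-3.86 ± 0.54).

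H2afz was higher in FPKM outside polysomes than in them. Non-polysome values were 33.3, 38.3 and 19.5 FPKM in GV, 19.9, 19.2 and 34.3 FPKM in MII, 30.5, 10.7 and 12.9 FPKM in zygotes and 48.2, 172 and 34.4 FPKM in zygote M. They reached 288, 349.6 and 259 FPKM in two-cell and 619.8, 823 and 501 FPKM in two-cell M. Polysome values were below non-polysome values without overlap at every stage but MII. The difference was called in GV (-3.17 ± 0.54, 9.02-fold) and two-cell (-2.97 ± 0.54), while in MII it was -0.64 ± 0.54. In two-cell M (-1.53 ± 0.54) it was not called, but it was in 6 of 36 fits without 1 library and in 5 of 8 other settings, both replicate blocks included. From GV to MII the non-polysome level moved by -0.31 ± 0.54, beside the rise of 2.22 in polysomes, and the difference between these changes (2.53 ± 0.76) was not called. From zygote to zygote M, H2afz rose outside polysomes as well (2.02 ± 0.54), and the difference between the changes was -0.10 ± 0.76. The non-polysome call was lost without zygote M B (1.33), zygote C (1.73) or zygote D (1.86) of that fraction. From two-cell to two-cell M the non-polysome difference was 1.10 ± 0.54, without overlap and not called.

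H2afv, the second H2A.Z gene, was low in GV and had higher FPKM at MII in both fractions. FPKM is relative to its library, so this is no measured gain in the amount of H2afv mRNA. It measured 0.730, 0.588 and 0.697 FPKM in GV polysomes and 3.84, 8.95 and 4.70 FPKM in MII polysomes, a log2 difference of 3.03 ± 0.48 (8.14-fold). The non-polysome values were 0.631, 1.03 and 1.62 FPKM in GV and 8.30, 7.27 and 12 FPKM in MII, a difference of 3.14 ± 0.48. Unlike those of H2afz, the H2afv values of zygote M polysomes (1.61, 2.00 and 1.32 FPKM) overlapped those of zygotes (1.72, 1.81 and 2.00 FPKM). Two-cell polysomes held 2.84, 2.43 and 1.90 FPKM and two-cell M 4.10, 3.32 and 3.77 FPKM, a difference of 0.65 ± 0.48 that was not called. Outside polysomes H2afv values went from 7.73 to 10.4 FPKM in two-cell to 3.89 to 6.08 FPKM in two-cell M (-0.99 ± 0.48, no overlap, not called). In two-cell, polysome values were below non-polysome values without overlap (-1.94 ± 0.48, 3.85-fold). That difference was called, and the call was lost only in a fit of those libraries alone. In polysomes H2afv in MII was called above zygote M (1.75 ± 0.48), which was lost without MII B or zygote M C, and H2afv in GV was below two-cell (-1.82 ± 0.48). The mean of H2afz exceeded that of H2afv in each group, in polysomes by 2.69-fold in MII to 60.6-fold in two-cell M.

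H2afx, which encodes H2A.X, was prominent in MII. Its polysome values were 5.04, 30.4 and 5.05 FPKM in GV and 1034, 883 and 654 FPKM in MII, where its mean of 857 ± 192 FPKM (SD, n = 3) was the 12th highest of all genes. In zygotes the values were 4.26, 4.21 and 4.67 FPKM and in zygote M 4.69, 2.75 and 2.29 FPKM. MII thus stood apart from all other groups in this fraction. H2afx was 6.52 ± 1.37 higher in MII than in GV on the log2 scale (91.7-fold), 8.09 ± 1.37 above zygote M and 4.35 ± 1.37 above two-cell M. These 3 calls held under each alternative tried. Without GV B, a library with a higher value than the other two, the difference from GV was 7.38 (167-fold), and without two-cell M A that from two-cell M was 3.75. Two-cell polysomes held 10.1, 7.37 and 1.90 FPKM and two-cell M 17.7, 57.1 and 69.0 FPKM, without overlap (2.98 ± 1.37, not called). Two-cell C, the lowest of its group, made this difference larger, and two-cell M A, the lowest of its group, made it smaller.

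In the non-polysome fraction H2afx was already abundant in GV, at 105, 118 and 65.8 FPKM, 10.2-fold above the polysome level, which was not called (18.5-fold without polysome GV B, also not called). MII held 829, 791 and 695 FPKM, which overlapped the polysome values. Zygotes then had 30.6, 12.4 and 20.2 FPKM, zygote M 8.32, 21.7 and 23.7 FPKM and two-cell 66.2, 86.2 and 36.4 FPKM. Non-polysome two-cell M ran from 0.247 FPKM in library A, which is 4 fragments, to 84.2 and 372 FPKM. That library widened the spread of the fit for H2afx: without it the SE fell from 1.37 to 0.68, and the two-cell M rise in polysomes (2.98), the MII rise in the non-polysome fraction (3.04) and the lower polysome level in GV (-3.35) and two-cell (-3.50) were called. The polysome rise in two-cell M and the two-cell difference were called without non-polysome two-cell M C as well. Under other settings the two-cell difference was called with 1 added to each FPKM, in a fit of those libraries alone and with stage and letter as a block, the GV difference with 1 added and under quantile normalization, and the polysome rise under quantile normalization. Without library A the non-polysome difference between two-cell M and two-cell turned from -1.58 to 1.58.

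macroH2A mRNA (H2afy) was low at each stage. Polysome values were 0.410, 0.229 and 0.802 FPKM in GV, 0.165 to 0.220 FPKM in MII, 0.175 to 0.304 FPKM in zygotes and 0.0592 to 0.295 FPKM in zygote M. Non-polysome values were between 0.01 and 0.483 FPKM at these 4 stages. In two-cell and two-cell M none of the 12 libraries exceeded 0.0809 FPKM. The highest H2afy value in the series rested on about 134 fragments and the lowest on 0.

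**Figure D2:**
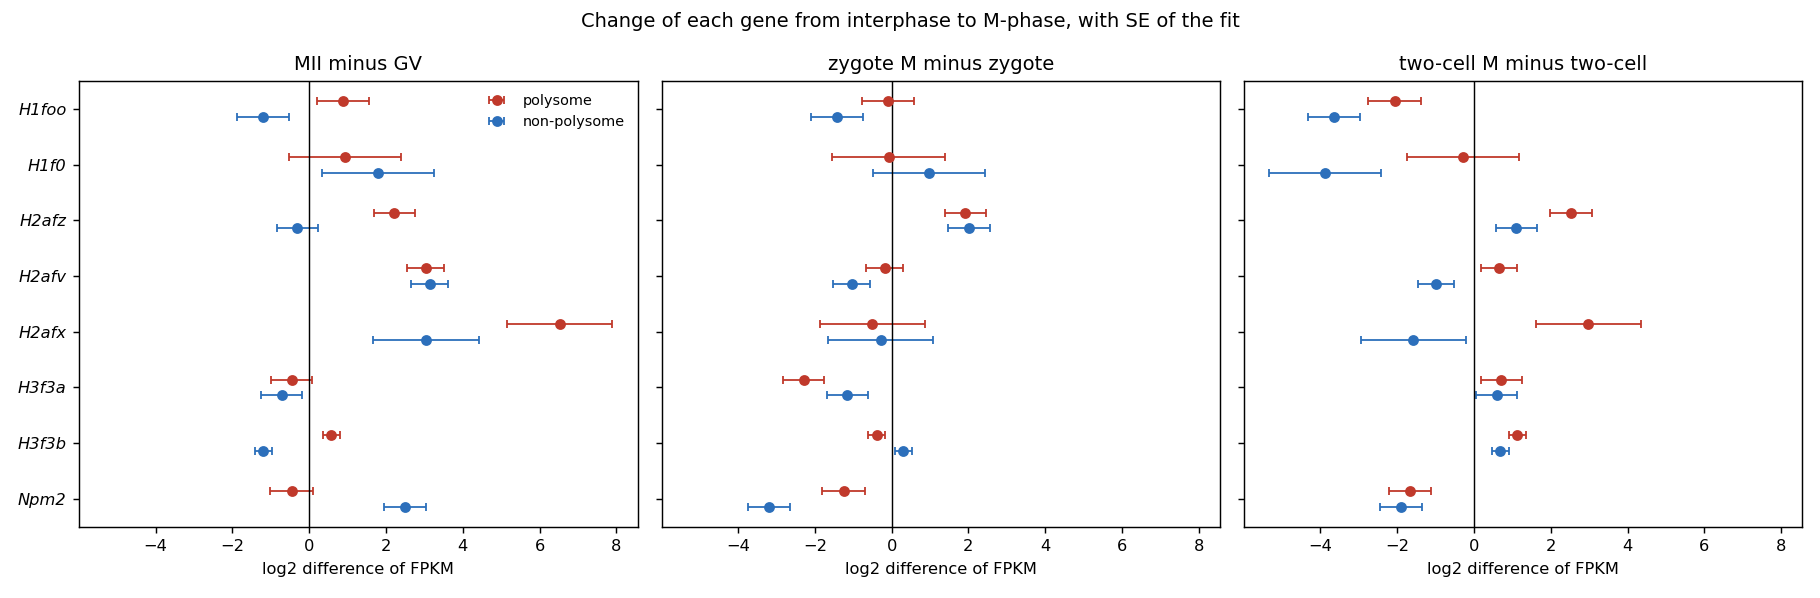
Points are log2 differences of FPKM between M-phase and interphase in polysome (red) and non-polysome (blue) RNA, with bars for the SE of the fit. H2afz lay between 1.92 and 2.53 in polysomes in the 3 panels, H2afx and H2afv stood apart in MII against GV, and H3f3b moved in opposite directions in the fractions in MII against GV.

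Of the H3.3 genes, H3f3b had the higher FPKM in each of the 36 libraries. H3f3b measured 73.8, 78.1 and 92.9 FPKM in GV polysomes, 106, 143 and 119.5 FPKM in MII and 74.8, 75.5 and 95.4 FPKM in zygotes. Zygote M held 72.2, 50.4 and 65.8 FPKM, two-cell 29.4, 34.7 and 30.7 FPKM and two-cell M 59.8, 83.2 and 66.7 FPKM. The two-cell libraries were the lowest of all, and GV exceeded two-cell by 1.36 ± 0.22 (2.58-fold), a call lost under quantile normalization (0.83). H3f3b rose by 1.13 ± 0.22 from two-cell to two-cell M. The MII values exceeded all GV values (0.58 ± 0.22, under the 2-fold limit) and zygote M lay below zygote (-0.39 ± 0.22, not called). The difference of MII from zygote M, 0.97 ± 0.22, was below the 2-fold limit and passed it without MII A, zygote M A or zygote M C.

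Outside polysomes H3f3b took another course. Values were 393, 447 and 405 FPKM in GV and 174, 156 and 218 FPKM in MII, a log2 difference of -1.20 ± 0.22, opposite in sign to that in polysomes. The difference between the changes, 1.78 ± 0.32, was called, and so was that for MII against two-cell M, 1.93 ± 0.32. The first was lost without polysome GV A (1.71), and the second held without any one library. Zygotes held 197, 199.9 and 164 FPKM, zygote M 210.1, 246 and 230.5 FPKM, two-cell 250.1, 239.8 and 245 FPKM and two-cell M 432, 437 and 323 FPKM. Polysome values were lower at every stage without overlap, from 1.49-fold in MII to 7.76-fold in two-cell, and called at each stage but MII. The zygote call was lost under quantile normalization (-0.82).

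H3f3a was lower and its values are less certain. Polysomes held 13.2, 9.64 and 22.8 FPKM in GV, 11.3, 10.6 and 9.38 FPKM in MII and 12.5, 13.4 and 14.7 FPKM in zygotes. Zygote M had 4.68, 1.03 and 4.33 FPKM, two-cell 3.28, 4.58 and 3.24 FPKM and two-cell M 5.29, 7.89 and 5.13 FPKM. H3f3a fell by 2.29 ± 0.54 from zygote to zygote M, a call lost without zygote M B. The low value of that library (1.03 FPKM) enlarged this fall and the difference of MII from zygote M. H3f3a was higher in GV than in two-cell (1.97 ± 0.54, lost without GV C). It was also higher in MII than in zygote M (1.92 ± 0.54, lost without MII A, MII B or zygote M B). Non-polysome H3f3a ran from 3.16 to 9.46 FPKM in zygote M to 17.0 to 48.7 FPKM in two-cell M, and no stage comparison in that fraction was called. Polysome values were 5.78-fold lower than non-polysome values in two-cell and 5.32-fold lower in two-cell M, and in zygotes they overlapped. The two-cell M call was lost under quantile normalization and in a fit of those libraries alone.

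Reads of H3f3a can also match the processed pseudogenes H3f3c, H3f3a-ps1 and H3f3a-ps2, so how reads were divided among them is uncertain. H3f3c reached a mean of 136 FPKM in non-polysome two-cell M, against 34.9 FPKM for H3f3a. Exons of H3f3a also overlap an antisense gene, H3f3aos, which had no group mean above 0.236 FPKM. H2afx, H1f0 and H2afy likewise overlap annotated genes on the opposite strand, and Npm2 overlaps Xpo7 and Hira overlaps Gm28539 on the same strand.

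Npm2 was higher in interphase embryos than in oocytes. Its polysome values were 2.78, 3.11 and 3.53 FPKM in GV and 3.10, 2.30 and 1.64 FPKM in MII. They were 9.84, 11.9 and 12.3 FPKM in zygotes and 15.3, 19.6 and 26 FPKM in two-cell. Each interphase embryo library lay above each oocyte library. Zygote M held 4.76, 4.59 and 4.88 FPKM and two-cell M 4.97, 5.05 and 9.61 FPKM, below the interphase embryos without overlap. Zygote M differed from zygote by -1.25 ± 0.55, which was not called but was with 1 added to each FPKM and in a fit of those groups alone. Npm2 in GV was below zygote (-1.85 ± 0.55) and two-cell (-2.66 ± 0.55), and it fell by 1.67 ± 0.55 from two-cell to two-cell M, a call lost without two-cell C, two-cell M A or two-cell M B. MII was lower than two-cell M (-1.46 ± 0.55), which was lost without MII B, MII C or two-cell M C. Both calls were also lost when only the groups compared were fitted. The call of GV against zygote was at the limit: it was lost in 20 of 36 fits without 1 library, those without any one of the GV or zygote polysome libraries included, and with the letter as a block.

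In GV the non-polysome level of Npm2 was only 0.446, 0.247 and 0.660 FPKM, so that polysomes were 7.49-fold higher, a call lost when only those libraries were fitted. In zygotes this was turned round, with 18.4, 19.2 and 19.7 FPKM outside polysomes (polysomes -0.76 ± 0.55, no overlap, not called). From zygote to zygote M the non-polysome level fell by 3.19 ± 0.55, to 0.999, 3.03 and 3.05 FPKM. Two-cell held 11.7, 6.32 and 19.6 FPKM and two-cell M 2.08, 2.94 and 4.59 FPKM. Estimated fragments for Npm2 ran from 6 to 529 per library.

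Hira, the H3.3 chaperone subunit, was listed at or near the floor of the table. Its highest value was 0.371 FPKM, in polysome two-cell M A, and in both fractions of MII no library exceeded 0.0106 FPKM. The other libraries ran from 0.01 to 0.311 FPKM. At most about 44 fragments lay behind any value.

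**Figure D3:**
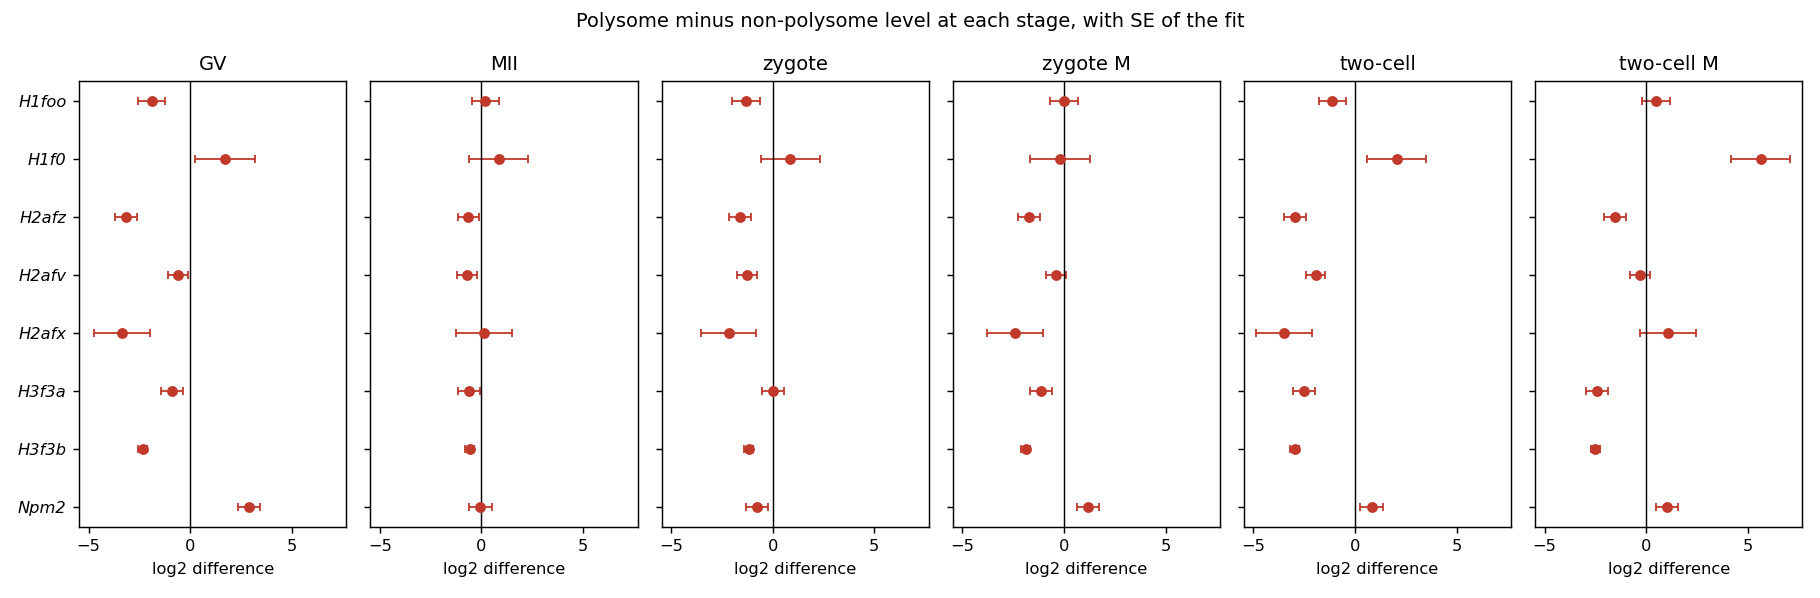
Points are log2 differences between polysome and non-polysome FPKM at each stage, with bars for the SE of the fit. H3f3b and H2afz lay below 0 in all 6 panels and Npm2 was 2.90 in GV.

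Counted over the 8 genes fitted, 25 of 56 gene and comparison pairs in polysomes were called (19.4% over all genes). The calls among all genes are given beside them and nothing is read from the ratio. In GV against zygote 2 of 8 genes were called (5.61% of all genes), in GV against two-cell 6 (16.7%), in MII against zygote M 4 (12.4%) and in MII against two-cell M 4 (53.0%). In MII against GV 3 were called (6.11%), in zygote M against zygote 2 (5.75%) and for two-cell M against its interphase 4 (36.3%). The median log2 difference of the 8 genes was 0.91 in MII against GV, beside 0.18 for all genes, -0.29 beside -0.43 in zygote M against zygote, and 0.68 beside -1.17 for two-cell M against its interphase. All genes had a median of 2.64 in MII against two-cell M, where that of the 8 genes was 0.80. In GV against zygote the medians were -0.35 and -0.01, in GV against two-cell 0.22 and 0.85, and in MII against zygote M 1.36 and 0.46.

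In the non-polysome fraction 25 of 56 pairs were called as well (26.8% over all genes), by comparison 4 genes in GV against zygote (13.9% of all genes), 4 in GV against two-cell (29.7%), 4 in MII against zygote M (19.8%), 5 in MII against two-cell M (61.3%), 3 in MII against GV (16.6%), 2 in zygote M against zygote (10.4%) and 3 for two-cell M against its interphase (36.1%). Between fractions 12 of 48 pairs were called (6.64% over all genes), with 3 genes in GV (4.96%), 0 in MII (0.753%), 1 in zygote (1.38%), 1 in zygote M (1.92%), 3 for two-cell M (14.8%) and 4 for two-cell (16.1%). The difference between the changes in the fractions was called for H3f3b only, in MII against GV (0.163%) and in MII against two-cell M (3.3%), so 2 of 56 pairs were called (1.74% over all genes). The 5 other comparisons of the changes gave 0 calls among the 8 genes (0.0126% of all genes for GV and zygote, 2.26% for GV and two-cell, 0.427% for MII and zygote M, 0.289% for zygote M and zygote, 5.75% for two-cell M and two-cell). Comparisons that share a stage share its libraries.

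The deposition machinery around these variants was followed in polysomes through 58 further genes, of which 37 were fitted. Their lists were also chosen with earlier results of these data known, and genes are named because they were called. The adjusted p-values here and below are therefore a description and no independent test. In the list of H3.3 and H3-H4 chaperones, MII stood above two-cell M for 4 of 12 fitted genes and below it for 0, with a median of 1.36 beside 2.64 for all genes, of which 53.0% were called. Among them Asf1b, an H3-H4 chaperone, was 2.64 ± 0.91 higher (means 26.1 and 5.13 FPKM, limma adjusted p = 0.0159), and it fell by 2.70 ± 0.91 from two-cell to two-cell M (adjusted p = 0.021). Each of these calls was lost without two-cell M A (2.45 and -2.51) or two-cell M B (2.20 and -2.25). The fall was also lost without two-cell B (-2.61). Mis18a, a factor for centromeric chromatin, was lower in GV (3.99 FPKM) than in zygotes (24.1 FPKM, -2.62 ± 0.47, adjusted p = 0.000465).

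Of 8 fitted H2A.Z exchange factors, Vps72, a subunit that binds H2A.Z, rose by 4.80 ± 0.62 from zygote (3.41 FPKM) to zygote M (94.0 FPKM, adjusted p = 4.05e-06) and fell by 4.78 ± 0.62 from two-cell (18.4 FPKM) to two-cell M (0.714 FPKM, adjusted p = 1.3e-06). Vps72 in MII was below zygote M (-2.32 ± 0.62, adjusted p = 0.0119, lost without MII B) and above two-cell M (4.85 ± 0.62, adjusted p = 3.89e-07). Ruvbl2, an ATPase of these complexes, was higher in GV (46.5 FPKM) than in zygotes (8.88 FPKM, 2.35 ± 0.69, adjusted p = 0.039, lost in 5 fits without 1 library) and two-cell (2.76 FPKM, 4.06 ± 0.69, adjusted p = 0.000118), and higher in MII than in two-cell M (3.65 ± 0.69, adjusted p = 7.82e-05). Dmap1, another subunit, held 59.7 FPKM in MII against 1.29 FPKM in zygote M (5.75 ± 1.35, limma adjusted p = 0.00401). In two-cell M it held 1.79 FPKM (MII 5.78 ± 1.35 higher, limma adjusted p = 0.000817). That difference was 4.98 without two-cell M A and 6.76 without two-cell M C, and it was called in both fits. Against two-cell M, MII was above for 4 of the 8 and below for 1 (53.0% of all genes called), with a median of 3.13.

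Among the core histone variants, Cenpa, the centromeric H3, rose in polysomes at the same 3 M-phases as H2afz, by 2.45 ± 0.54 in MII (adjusted p = 0.00422), 1.79 ± 0.54 in zygote M (adjusted p = 0.0489) and 2.36 ± 0.54 in two-cell M (adjusted p = 0.00128). The call in zygote M was at the limit and was lost in 24 of 36 fits without 1 library. The study reports Cenpa and H2afz together as translated in the M-phases from these same data, so their match is no separate evidence. H2afj, an H2A variant, was higher in MII (88.9 FPKM) than in zygote M (6.21 FPKM, 4.02 ± 0.56, adjusted p = 9.21e-06) and in GV than in zygotes (1.92 ± 0.56, adjusted p = 0.038, lost in 5 fits without 1 library). H3f3c, annotated as a processed pseudogene, can share reads with H3f3a. It was 1.88 ± 0.61 higher in GV than in two-cell (limma adjusted p = 0.0334). This call was lost in 4 of 36 fits without 1 library, with values from 1.60 to 1.84. The value for H3f3a was 1.97, so the H3f3c difference is no separate evidence. Of 6 fitted linker histones, H1fx, a replication-independent form, was higher in MII (18.3 FPKM) than in two-cell M (1.25 FPKM, 4.90 ± 1.37, adjusted p = 0.0039) and fell by 4.61 ± 1.37 from two-cell to two-cell M (adjusted p = 0.00961). Hist1h1e was higher in GV (34.7 FPKM) than in two-cell (3.05 FPKM, 6.22 ± 1.54, adjusted p = 0.0055). In two-cell its libraries held 0.01, 8.49 and 0.661 FPKM, the first of them at the floor of the table, and without it the difference was 3.59 and not called. Without two-cell M B the values of H1fx were 3.31 and -3.02, neither of them called. In the list of H2A-H2B chaperones and nucleoplasmin relatives of Npm2, with 8 fitted genes, MII was above two-cell M for 1 (12.5% beside 53.0% of all genes) and below zygote M for 1 (12.5% beside 12.4%), and both were under 10 FPKM (Supt16 and Npm3, named here after their values were seen). The 4 kinases and readers of H2A.X (Atm, Atr, Prkdc and Mdc1) did not reach the minimum, and their summed level was at most 0.753 FPKM in any library. Over all lists, GV was above zygote for 2 genes and below it for 1, and above two-cell for 5 and below it for 0. MII was above zygote M for 2 and below it for 2, above two-cell M for 11 and below it for 1, and above GV for 1 and below it for 0. Zygote M was above its interphase for 2 and below it for 0, and two-cell M was above its interphase for 4 and below it for 6. The called share of the 37 genes was above that of all genes in 1 of these 7 comparisons, GV against zygote (8.11% beside 5.61%). It was 32.4% beside 53.0% in MII against two-cell M.

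**Figure D4:**
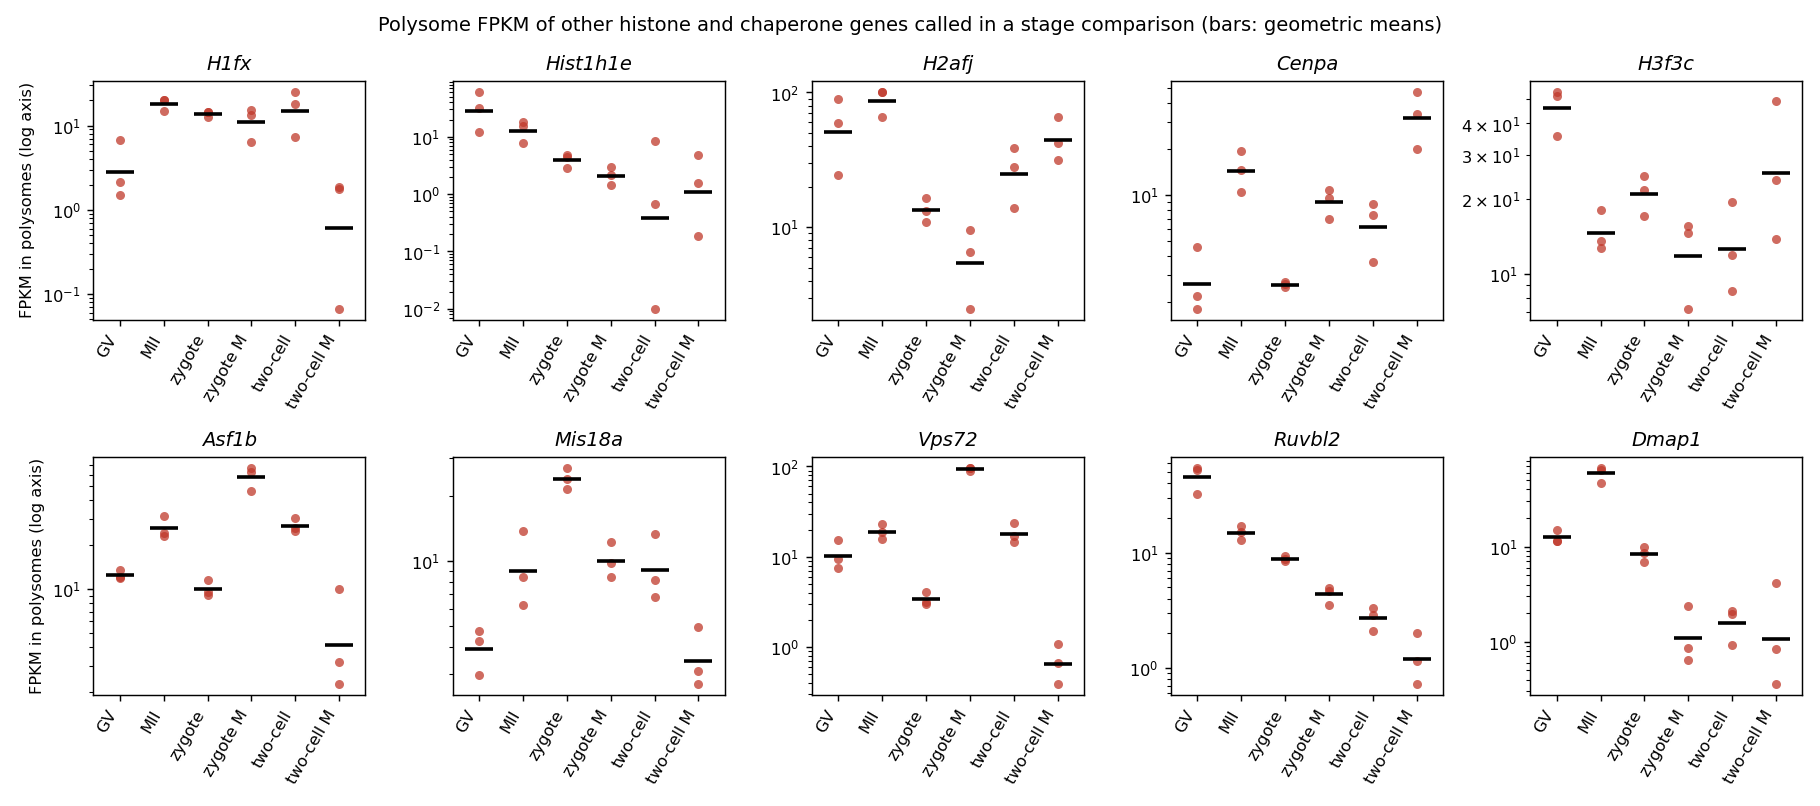
Each point is 1 polysome library (FPKM on a log axis) and each bar the geometric mean of 3 at the 6 stages, for the 10 further histone and chaperone genes that were called in a polysome comparison with a mean of at least 10 FPKM in 1 of its groups. Vps72 was highest in zygote M (arithmetic mean 94.0 FPKM) and Cenpa was higher in each M-phase than in its interphase.

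The genes with the most similar pattern were sought among 2509 protein-coding genes by Pearson r of log2 FPKM over the 36 libraries, which share their stage means. For H1foo they were Gdf9 (r = 0.921), Khdc3 (0.91) and Fbxw19 (0.909). H1f0 was most like AK157302 (0.911), Napa (0.91) and Dnajc30 (0.885), and H2afz most like Polr2h (0.877), Gadd45b (0.862) and Nip7 (0.855). For H2afx the values were lower, with Cox14 (0.787), Fbxl6 (0.765) and Pex16 (0.748). H2afv was most like Trappc4 (0.883), Gm10282 (0.795) and Emg1 (0.785). H3f3a was closest to Hnrnpk (0.797), Ddx39 (0.778) and Atp6v0e (0.767), and H3f3b to Hnrnpa1 (0.805), Hnrnpk (0.801) and Dppa3 (0.776). Npm2 was most like Olfr624 (0.807), Hexdc (0.78) and Fth1 (0.732). Among the 8 genes themselves the highest r was that of H3f3a with H3f3b (0.739) and the lowest that of H1foo with H2afz (-0.633).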

How the data were processed

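Polysome and non-polysome RNA of 6 stages was sequenced in 3 libraries each. Each gradient was cut into 10 fractions, the lighter 5 giving 1 non-polysome and the denser 5 giving 1 polysome library, and cDNA was made with SMART-seq v4 and Nextera XT. Per the submitters' processing notes and the study's methods, reads were trimmed with Trim Galore 0.4.1 and aligned with STAR 2.5.3a to GRCm38. The deposited values are FPKM per gene, which the authors computed in Partek; 0.01 is included in every value of the table. FPKM corrects for length, so levels of different genes can be compared, but not for RNA amount. Whether an mRNA was captured equally well at each stage when cDNA was made was not tested. Depth was estimated from the steps between low FPKM values. Counts came out whole (within 0.05) for only 40.6% of 56349 values, so no count test was run and fragment numbers are approximate. Of 38 labelled samples, 36 had a column, and 2 zygote samples are not analysed here. The labels describe the nocodazole treatment of embryos as meiotic, and embryos are described here as held in M-phase.

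The log2 of each value, with nothing added, was fitted in limma 3.58.1 (R 4.3.3) with 12 group means over 36 libraries and an empirical Bayes trend, for the 7967 genes whose geometric mean reached 0.1 FPKM. Calls needed a Benjamini-Hochberg adjusted p under 0.05 over these genes and a log2 difference beyond 1. P-values measure only the spread between these samples. The members and gene lists were chosen with earlier results of these data known. Named genes are the members, list genes called in a polysome comparison with a mean of at least 10 FPKM in 1 of its groups, and the 3 genes most like each member by Pearson r among those whose geometric mean reached 1 FPKM. Cenpa in zygote M, Supt16 and Npm3 are given although below that mean. Tables were handled in Python 3.11.15 with pandas 2.3.3 and numpy 2.4.6.

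The fit was tested on data simulated for MII against GV polysomes with 7967 genes. It called 37 of 100 genes changed by 4 on the log2 scale and 3 of 100 changed by 2, 0 with the wrong sign, and 4 unchanged genes. A difference that was not called is therefore not evidence of no change. Alternatives were an addition of 0.1 or 1 to each FPKM, no expression filter, a filter at a mean of 1 FPKM, quantile normalization, fits of the compared groups alone, replicate blocks, and leaving out each library.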

Additional observations from a re-analysis of the deposited data

Results flagged for a closer look

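For some genes each library of one group moved opposite to each library of another under the same kind of contrast. Whether 1 stage change differed from another was not tested, and differences of a stage change between fractions are given at the end. All values are log2 differences. For H2afv outside polysomes, MII exceeded GV (3.14) while zygote M lay below zygote (-1.04) and two-cell M below two-cell (-0.99). H2afv was lower in GV than in zygote (-1.46 in polysomes, not called but called in 4 of 7 other settings and without non-polysome two-cell M C, and -2.11 outside, called) and two-cell (-3.16 outside), but higher in MII than in zygote M (1.75 in polysomes, 2.07 outside) and two-cell M (0.97 outside). In two-cell M against two-cell it was 0.65 in polysomes.

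For H3f3a in polysomes, zygote M lay below zygote (-2.29) and two-cell M above two-cell (0.71). For H3f3b in polysomes, MII exceeded GV (0.58) and two-cell M exceeded two-cell (1.13), whereas zygote M was below zygote (-0.39). Outside polysomes the H3f3b signs were the reverse for MII (-1.20) and zygote M (0.30), while two-cell M was higher (0.68). H3f3b outside polysomes was 0.76 higher in GV than in two-cell and differed by -1.12 between MII and two-cell M, where the polysome difference was 0.81.

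For Npm2 outside polysomes, MII exceeded GV (2.49) and both M-phase embryos lay below interphase (-3.19 in zygote M, -1.90 in two-cell M). Npm2 was higher in polysome than in non-polysome RNA in GV (2.90), zygote M (1.18) and two-cell M (1.03), and lower in zygote (-0.76).

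The difference of a stage change between fractions was fitted as an interaction term in limma. For H3f3b it passed the limits in MII against GV (1.78) and in MII against two-cell M (1.93), and not in zygote M against zygote (-0.68). For H2afv in two-cell M against two-cell it was 1.64 and did not pass. These values are among those the genes were selected on, so they are a description and no independent test.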

How the results depend on the processing

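None of the called differences of the 8 genes in polysomes or between fractions changed sign in any alternative tried. Calls in polysomes (25) ran from 24 to 28 over the alternatives and from 20 to 27 without 1 library, those outside polysomes (25) from 22 to 27 in both, and those between fractions (12) from 10 to 16 and from 12 to 14. The 2 calls of a difference between fractions became 4 with 1 FPKM added, 4 under quantile normalization and 6 in fits of the compared groups alone, and ran from 1 to 4 without 1 library. The 37 calls of other histone and chaperone genes became 62, 74 and 82 in these 3 settings, 52 with 0.1 added, and ran from 30 to 47. The cause was not tested. Quantile normalization moved 28 of 104 member values by more than the replicate SD, and the all-gene median in MII against two-cell M polysomes went from 2.64 to 0.14. It turned 3 differences that were not called, H2afv in MII against two-cell M (0.55 to -0.51), H2afv in zygote M against zygote (-0.18 to 0.33) and H3f3a in MII against two-cell M (0.79 to -0.11).

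The labels do not say what a replicate letter shares. Each gradient gave a polysome and a non-polysome library, so fractions of one stage with the same letter may be paired. The main fit did not use this pairing, which is a limit of its differences between fractions. Deviations of the fractions of one stage correlated with a mean r of 0.076 for the same letter (6 of 18 pairs over 0.1) and -0.037 for other letters (1 of 36). Of 36 libraries, 27 correlated best with their own letter, a hint from the data that fractions with the same letter share a source. With the letter as a replicate block the calls were 24 in polysomes, 24 outside, 13 between fractions, 2 for the difference between fractions and 34 for other genes. With stage and letter as a replicate block, which uses the pairing, 15 differences between fractions were called, against 12 in the main fit. Those added were H1foo in GV, H2afx in two-cell and H2afz in two-cell M. With estimated depths from 8490000 fragments, values resting on fewer than about 10 fragments (H1f0, H2afx and Npm2 in single libraries, H2afy and Hira in many) have wide counting error.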

Other observations

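The processed pseudogenes of H3f3a varied with the library letter in embryos. H3f3a-ps1 measured 408 FPKM in library B of non-polysome two-cell, against 8.95 FPKM in A and 0.374 FPKM in C. In non-polysome two-cell M it was 97.5, 672 and 0.164 FPKM in A, B and C, and in non-polysome zygote M 5.54, 169.5 and 0.01 FPKM. In polysomes library B was also the highest in zygote M (9.51 FPKM), two-cell (49.5 FPKM) and two-cell M (161 FPKM). The oocyte libraries did not exceed 1.71 FPKM. H3f3a-ps2 measured 15.9, 109 and 21.7 FPKM in non-polysome two-cell, and H3f3c 45.1, 181 and 53.7 FPKM. In the same libraries H3f3a itself was 16.1, 31.3 and 18.7 FPKM, while H3f3b was 250.1, 239.8 and 245 FPKM with no such difference.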
